A study of Mus musculus with 12 samples.

Results

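The genes described here are 6 components of the angiotensin and adrenergic systems, Agt, Ace, Agtr1a, Adra1a, Adra1b and Adrb1, followed across adult mouse hearts. Each gene was read on the brightest probe set that carried its symbol and no other. Of the 6 genes, 4 had such a probe set (Agt, Ace, Agtr1a and Adra1b, each with 1), among 26989 genes read the same way. Adra1a, an alpha-1 adrenergic receptor, and Adrb1, the main beta-adrenergic receptor of heart muscle, were not found in the probe annotation used and were not analysed here.

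Hearts came from 10-week-old male C57BL/6J mice, 2 weeks after surgery, with 1 Affymetrix Clariom D array per heart and 3 biological replicates in each of 4 groups. The groups were ADAM12 knockout mice after transverse aortic constriction (TAC, which narrows the aortic arch and raises the pressure load on the left ventricle), ADAM12 knockout mice after a sham operation, wild-type mice after TAC and wild-type mice after a sham operation. How the knockout allele was made, and whether it is confined to any cell type, is not given in the sources used here. Described here is how these genes stood under load in hearts lacking ADAM12, a membrane-bound metalloprotease, and in wild-type hearts.

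Angiotensinogen, the product of Agt, is the secreted precursor that renin cuts to angiotensin I. Angiotensin-converting enzyme (Ace), bound to cell surfaces and best known from endothelium, trims this to angiotensin II, which acts through the type 1 receptor; in mice that receptor is encoded by Agtr1a and its close relative Agtr1b. The angiotensin type 1 receptor and the alpha-1 adrenergic receptors signal through Gq and phospholipase C, beta-adrenergic receptors mainly through Gs and cyclic AMP, and both systems are known for driving growth of heart muscle and for being targets of heart failure drugs.

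The 250 bases before the annotated starts of Ace, Agt and Adra1b are shown because these genes differ in their response below, Ace going up and Adra1b down. They are from RefSeq on GRCm38.p6, 5′ to 3′ on the strand of the gene, which is the minus strand for Agt and Adra1b. Agtr1a is named only. Capitals mark every match, on either strand, to GGGCGG (the GC box bound by Sp1) or TATAAA (the TATA box).
Ace, chr11:105967698-105967947: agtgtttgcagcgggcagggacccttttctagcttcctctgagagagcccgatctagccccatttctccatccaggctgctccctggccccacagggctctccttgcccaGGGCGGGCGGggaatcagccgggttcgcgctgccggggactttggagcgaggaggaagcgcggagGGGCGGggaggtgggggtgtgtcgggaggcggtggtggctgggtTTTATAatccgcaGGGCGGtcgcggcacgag
Agt, chr8:124569707-124569956: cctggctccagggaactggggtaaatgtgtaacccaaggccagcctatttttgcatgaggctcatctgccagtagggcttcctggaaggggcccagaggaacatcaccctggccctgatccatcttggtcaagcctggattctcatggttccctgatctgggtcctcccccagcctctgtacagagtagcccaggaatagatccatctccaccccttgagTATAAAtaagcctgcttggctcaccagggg
Adra1b start 1, chr11:43901238-43901487: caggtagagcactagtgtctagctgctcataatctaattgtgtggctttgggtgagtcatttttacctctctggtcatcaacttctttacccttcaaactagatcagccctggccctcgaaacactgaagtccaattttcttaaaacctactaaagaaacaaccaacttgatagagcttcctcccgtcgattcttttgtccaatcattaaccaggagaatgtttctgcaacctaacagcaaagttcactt
Adra1b start 2, chr11:43836490-43836739: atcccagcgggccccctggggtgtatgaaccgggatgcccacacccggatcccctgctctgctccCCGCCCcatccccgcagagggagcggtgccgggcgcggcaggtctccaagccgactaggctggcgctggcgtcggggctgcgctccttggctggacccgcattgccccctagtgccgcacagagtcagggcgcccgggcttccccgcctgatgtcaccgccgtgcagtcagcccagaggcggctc

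The Ace window held 4 GC boxes, beginning 140, 136, 75 and 18 bases before the start, of which the 140 and 136 matches overlap, and 1 TATA box beginning 31 bases before it. The Agt window held a TATA box beginning 30 bases before the start and no GC box. Neither motif was in the window of Adra1b start 1, and that of start 2 held 1 GC box. Among 32851 RefSeq windows of this length 32.7% held GGGCGG and 12.4% held TATAAA on either strand. Ace has a further annotated start, not shown, whose window held neither motif. Searched on both strands, 5 other motifs were in 0 of these windows. Of all windows, 0.536% held the EGR1 letters GCGTGGGCG and 1.55% the cyclic AMP response element TGACGTCA. The M-CAT element CATTCCT was in 4.51% of them. The E box CACGTG was in 6.02%. The GATA motif letters AGATAA were in 9.99%. Which annotated start the array probes follow was not known here.

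Over the 12 arrays the medians of all probe sets other than controls ran from 4.93 to 5.10 on the log2 scale. The targeted gene, Adam12, had only a dim probe set that also carries another symbol, and which part of the gene it covers was not known here. It stood at 4.25 to 4.40 in knockout TAC hearts, 4.32 to 4.40 in knockout sham hearts, 4.56 to 4.80 in wild type TAC hearts and 4.46 to 4.61 in wild type sham hearts, so the knockout arrays lay below the wild type arrays, but the difference after TAC (-0.37 ± 0.09, SE) had adjusted p = 0.163 by limma over all probe sets. The 6 cardiomyocyte markers averaged 17.65 to 17.96 on every array. The 6 atrial markers varied between arrays of the same group, from 10.10 to 12.84 in knockout TAC, 10.17 to 12.96 in knockout sham, 9.82 to 12.27 in wild type TAC and 10.32 to 12.96 in wild type sham hearts, and the groups overlapped.

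In knockout hearts TAC was accompanied by a higher level of the converting enzyme and lower levels of both receptors. Ace rose 3.82-fold, Agtr1a fell to 0.544 of its sham level and the dim signal of Adra1b fell by 0.70 on the log2 scale, while the precursor Agt did not pass the test. Thus 3 of the 4 measured genes were called at an adjusted p under 0.05 by limma, 1 higher and 2 lower. Across all 26989 genes 12.8% were called in this comparison, 7.08% higher and 5.68% lower. The members were chosen with earlier results of these data known, so their share is no test of an excess over all genes. In these bulk samples a change in the number of cells of a type and a change in RNA per cell cannot be told apart.

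**Figure D1:**
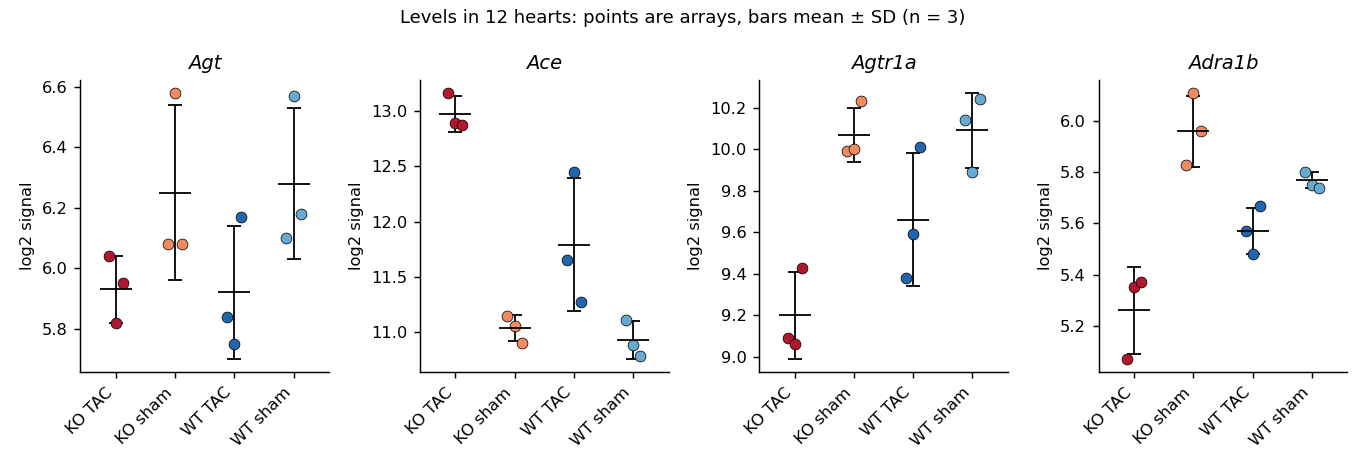
Log2 signal of Agt, Ace, Agtr1a and Adra1b (vertical axes, a scale per gene) on the 12 arrays, by group along the horizontal axis; points are arrays, horizontal bars the mean and vertical bars the SD (n = 3). Ace stood at 12.87 to 13.16 in the knockout TAC hearts, above the other 9 arrays, and Agtr1a and Adra1b had their lowest group means there.

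Agt, the precursor, read 6.04, 5.82 and 5.95 in knockout TAC hearts and 6.08, 6.58 and 6.08 in knockout sham hearts. It read 5.84, 5.75 and 6.17 in wild type TAC hearts and 6.10, 6.57 and 6.18 in wild type sham hearts. The highest array of each sham group stood apart from the other 2, and the TAC and sham arrays overlapped in wild type hearts but not in knockout hearts. In the knockout 32.3% of all genes had no such overlap. The difference between TAC and sham was -0.31 ± 0.17 in the knockout (SE, adjusted p = 0.288 by limma) and -0.36 ± 0.17 in the wild type (adjusted p = 0.409). Averaged over genotypes it was -0.34 ± 0.12, at adjusted p = 0.0868 by limma over all genes and p = 0.02 by an exact permutation test over 400 assignments of surgery within genotype (2-sided). The limma call depended on single choices: with replicate 3 of wild type TAC left out the averaged value was -0.40 (adjusted p = 0.0453). Leaving out other single arrays weakened it, to -0.25 at the smallest. Over all alternatives its adjusted p by limma ran from 0.0419 to 0.191. Agt was dim, with a mean of 6.10 against means of 1.97 to 6.09 for the array's 23 background probe sets, so the size of its change is poorly resolved.

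Ace, which makes angiotensin II, gave the largest difference among the 4 genes. It read 13.16, 12.89 and 12.87 in knockout TAC hearts and 11.15, 11.06 and 10.90 in knockout sham hearts. It read 11.65, 12.45 and 11.27 in wild type TAC hearts and 11.11, 10.89 and 10.79 in wild type sham hearts. TAC and sham arrays did not overlap in either genotype. Of all genes, 32.3% had no such overlap in the knockout and 16.1% in the wild type. The 3 wild type TAC hearts were spread over more than a log2 unit for Ace. In the knockout the rise was 1.94 ± 0.23 (adjusted p = 0.000543 by limma), and 0.23% of all genes had a larger difference in either direction. In the wild type the difference was 0.86 ± 0.23, a fold of 1.82, at adjusted p = 0.158. It turned on single arrays of the group: leaving out replicate 2, the highest, gave 0.53 (adjusted p = 0.31), and leaving out replicate 3, the lowest, gave 1.12 (adjusted p = 0.037). Averaged over genotypes Ace rose by 1.40 ± 0.16 (adjusted p = 0.000394 by limma; exact permutation p = 0.005, the lower limit of a test over 400 assignments).

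Agtr1a, the main type 1 angiotensin receptor of mouse tissues, went the other way. It read 9.09, 9.06 and 9.43 in knockout TAC hearts and 9.99, 10.00 and 10.23 in knockout sham hearts. It read 9.38, 9.59 and 10.01 in wild type TAC hearts and 10.14, 9.89 and 10.24 in wild type sham hearts. The knockout groups did not overlap, as for 32.3% of all genes. Wild type TAC replicate 3, however, lay above the lowest wild type sham heart. Agtr1a fell by 0.88 ± 0.16 in the knockout on the log2 scale (-0.88, adjusted p = 0.00438 by limma), and the wild type difference of -0.43 ± 0.16 did not pass (adjusted p = 0.303). Averaged over genotypes it was -0.65 ± 0.11 (adjusted p = 0.00307 by limma; exact permutation p = 0.01).

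Adra1b, the alpha-1B adrenergic receptor, was the only adrenergic member measured. It read 5.07, 5.35 and 5.37 in knockout TAC hearts and 5.83, 6.11 and 5.96 in knockout sham hearts. It read 5.57, 5.48 and 5.67 in wild type TAC hearts and 5.80, 5.75 and 5.74 in wild type sham hearts. All 4 pairs of groups compared were separate from each other, with knockout TAC lowest and knockout sham highest; groups did not overlap for 32.3% of all genes for TAC in the knockout, 16.1% for TAC in the wild type, 19.2% between genotypes after TAC and 12.3% after sham. The fall in the knockout was -0.70 ± 0.10 (adjusted p = 0.00102 by limma), the wild type difference -0.19 ± 0.10 (adjusted p = 0.467), and the average -0.45 ± 0.07 (adjusted p = 0.00166; exact permutation p = 0.005). Its mean of 5.64 lay above 21 of the 23 background probe sets but under their 95th percentile of 5.70, as did every TAC array, so no fold is given.

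In wild type hearts 0 of the 4 genes were called for TAC by limma, against 0.178% of all genes (0.0667% higher and 0.111% lower). The unadjusted limma p was under 0.05 for Ace and Agtr1a, as it was for 3330 of the 26989 genes. Each of the 4 differences had the same sign as in the knockout, measured on separate arrays. The share of all genes with the same sign in both genotypes was not computed. The members were also chosen with earlier results known. Averaged over genotypes 3 of 4 were called, 1 higher and 2 lower, against 13.6% of all genes (7.49% higher and 6.12% lower). The order of the group means was knockout TAC, wild type TAC, knockout sham and wild type sham for Ace from high to low, of which the sham groups overlapped. For Agtr1a the order was wild type sham, knockout sham, wild type TAC and knockout TAC, where the sham groups overlapped each other, wild type TAC overlapped both sham groups, and the TAC groups overlapped each other. For Agt it was wild type sham, knockout sham, knockout TAC and wild type TAC, where the sham groups overlapped, the TAC groups overlapped, and knockout sham and knockout TAC did not. For Adra1b it was knockout sham, wild type sham, wild type TAC and knockout TAC, with no overlap between neighbours.

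**Figure D2:**
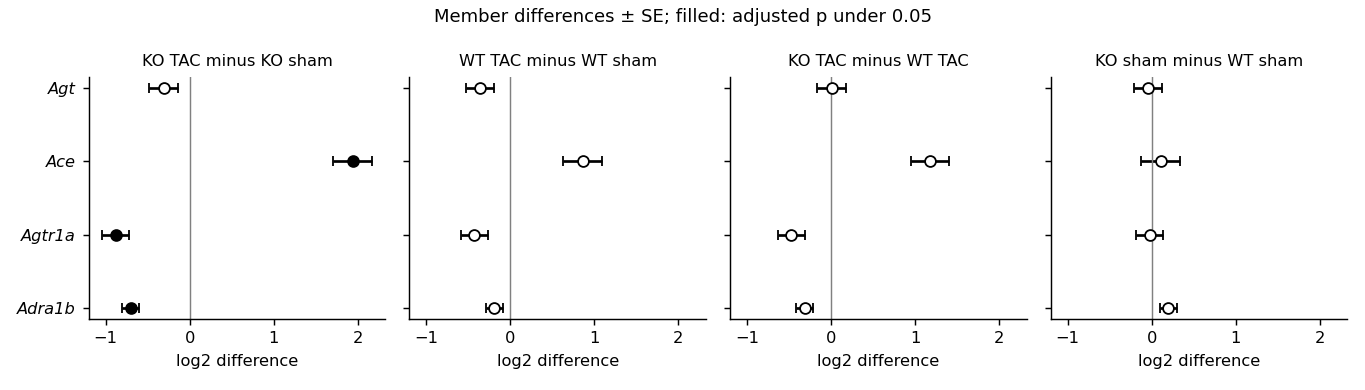
Log2 differences (horizontal axes) of the 4 genes (vertical axis) in 4 comparisons, with standard errors from limma; filled points had an adjusted p under 0.05. The filled points are Ace at 1.94, Agtr1a at -0.88 and Adra1b at -0.70 in the first panel, and all other points are open.

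Between genotypes after TAC, Ace averaged 12.97 ± 0.16 in knockout and 11.79 ± 0.60 in wild type hearts (SD, n = 3 each), a ratio of 2.27 that did not pass the test. The 3 knockout arrays (12.87 to 13.16) lay above the 3 wild type arrays (11.27 to 12.45), and these groups did not overlap for 19.2% of all genes. The Ace difference was 1.18 ± 0.23 at adjusted p = 0.0592 by limma, and 0.222% of all genes differed more. Agtr1a differed by -0.47 ± 0.16 (adjusted p = 0.205; -0.29 with replicate 3 of wild type TAC left out), Adra1b by -0.31 ± 0.10 (adjusted p = 0.167) and Agt by 0.01 ± 0.17 (adjusted p = 0.983). Called in this comparison were 0 of the 4 genes, against 0.0111% (3) of all genes. The unadjusted limma p was under 0.05 for Ace, Agtr1a and Adra1b, as it was for 3928 of the 26989 genes. An exact permutation test of 3 arrays against 3 cannot go below 0.1. The Ace call depended on the fit, passing with the replicate number as a block (1.18, adjusted p = 0.029) and with dim genes left out (adjusted p = 0.0293). It also rests on the spread among wild type TAC hearts: without replicate 2, the heart with the highest Ace, it was 1.51 at adjusted p = 0.000896, and in a fit of the 6 TAC arrays alone it was 1.18 at adjusted p = 0.276.

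After sham operation the genotypes differed little. The differences between knockout and wild type were 0.11 ± 0.23 for Ace, -0.04 ± 0.17 for Agt, -0.02 ± 0.16 for Agtr1a and 0.20 ± 0.10 for Adra1b, with adjusted p of 0.91 or more by limma. Here 0 of 4 members and 0 of all genes (0%) were called, and 1495 genes had an unadjusted p under 0.05. Adra1b was separate between the sham groups, at 5.83 to 6.11 in knockout and 5.74 to 5.80 in wild type hearts. The sham groups did not overlap for 12.3% of all genes.

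The interaction asks whether the response to TAC differed between genotypes. It was 1.07 ± 0.33 for Ace (adjusted p = 0.278 by limma), -0.51 ± 0.14 for Adra1b (adjusted p = 0.268), -0.45 ± 0.23 for Agtr1a (adjusted p = 0.502) and 0.05 ± 0.23 for Agt (adjusted p = 0.955). The interaction passed for 0 of 4 members and 0 of all genes (0%). Before adjustment Ace and Adra1b were under 0.05 by limma, as were 2963 of all genes. Calls for Ace, Agtr1a and Adra1b in the knockout alone therefore do not show that the genotypes responded differently. The Ace interaction ran from 0.81 (adjusted p = 0.431) with replicate 3 of wild type TAC left out to 1.40 (adjusted p = 0.015) with replicate 2 left out.

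Markers of some other heart cells changed with TAC in the knockout too, mainly those of fibroblasts and macrophages. Of all genes 7.08% rose and 5.68% fell there. Of 7 fibroblast markers 6 rose with TAC in the knockout, among them Col1a1, a collagen chain, by 3.39 ± 0.42 and Tcf21, a factor of resident fibroblasts, by 0.45 ± 0.13. Their mean level ran from 12.79 to 13.13 in knockout TAC hearts and from 10.72 to 10.93 in knockout sham hearts. It ran from 11.17 to 12.56 in wild type TAC hearts and from 10.74 to 11.00 in wild type sham hearts. Within the wild type TAC hearts the fibroblast mean was 11.89, 12.56 and 11.17 where Ace was 11.65, 12.45 and 11.27. These arrays fell in the same order, as they did for the mural cell mean (11.26, 11.30 and 11.12). The endothelial mean (12.69, 12.48 and 12.28) and the macrophage mean (9.41, 9.04 and 9.23) fell in other orders. So did the cardiomyocyte, atrial, adipocyte, and nerve and Schwann cell means. An order of only 3 arrays can match by chance, and the likeness was not tested.

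Of 5 endothelial markers 1 rose in the knockout, Pecam1, an adhesion molecule of endothelium, by 0.47 ± 0.09. Their mean was 12.51 to 12.62 in knockout TAC hearts, 12.23 to 12.31 in knockout sham hearts, 12.28 to 12.69 in wild type TAC hearts and 12.25 to 12.28 in wild type sham hearts. Of 4 macrophage markers 3 rose, with means of 9.42 to 10.04 in knockout TAC hearts and 8.85 to 9.08 in knockout sham hearts, and 9.04 to 9.41 in wild type TAC hearts and 8.81 to 9.08 in wild type sham hearts. Of 5 mural cell markers 1 rose (Cspg4, 0.63 ± 0.11) and 1 fell (Abcc9, -0.97 ± 0.13), and of 6 cardiomyocyte markers 3 fell. Called in the knockout were 0 of 6 atrial, 0 of 5 adipocyte and 0 of 3 nerve and Schwann cell markers. In wild type hearts 0 markers of these lists were called for TAC by limma. The part of these cell types in the results for Ace, Agtr1a and Adra1b was not tested.

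**Figure D3:**
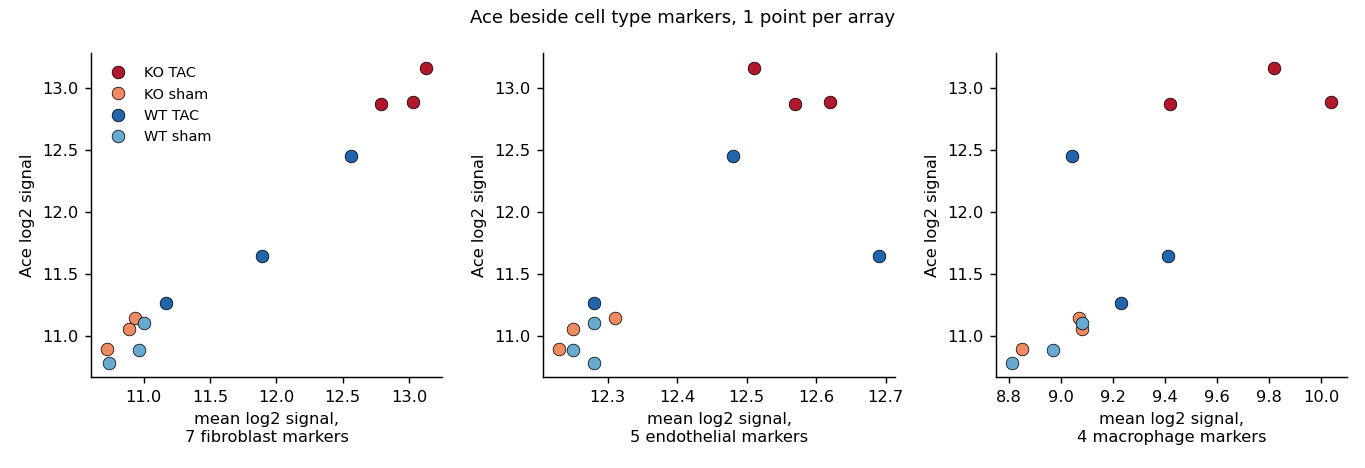
Ace log2 signal (vertical axes) beside the mean log2 signal of 7 fibroblast, 5 endothelial and 4 macrophage markers (horizontal axes), 1 point per array and coloured by group. Knockout TAC hearts had the highest Ace, the highest fibroblast means (12.79 to 13.13) and the highest macrophage means (9.42 to 10.04). For Ace and the fibroblast mean, wild type TAC hearts spread between them and the sham hearts. The endothelial means of wild type TAC hearts (12.28 to 12.69) reached above those of knockout TAC hearts (12.51 to 12.62). Macrophage means of wild type TAC hearts (9.04 to 9.41) overlapped those of wild type sham hearts (8.81 to 9.08).

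The genes whose profiles lay closest to each called member were sought among 8256 named genes with a mean log2 signal of at least 6. Likeness was the root mean square difference over the 12 arrays between profiles centred on their own means. Closest to Ace were Fat1, a cadherin (0.121), Itih5 (0.139) and Sparc, a collagen-binding matrix protein (0.171), against a range of 2.37 for Ace itself. Closest to Agtr1a were Yipf7 (0.109), Mccc2, an enzyme of leucine breakdown (0.122), and Hook1 (0.134), against its range of 1.18. Closest to Adra1b were Trdn, the triadin of the calcium release complex (0.087), Hsd17b10, a mitochondrial dehydrogenase (0.097), and Apip, an enzyme of methionine salvage (0.101), against its range of 1.04. Sparc averaged 16.65 in knockout TAC and 14.97 in knockout sham hearts, and 15.82 in wild type TAC and 14.87 in wild type sham hearts.

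Of 22 other renin-angiotensin genes 18 were measured, and in the knockout 2 rose and 2 fell with TAC, where 7.08% of all genes rose and 5.68% fell. The median difference was -0.03, and that of all genes -0.032. The 4 called genes degrade angiotensin peptides, bind renin or answer aldosterone. Prcp, a carboxypeptidase that removes the last residue of angiotensin II, read 10.11, 10.41 and 9.97 in knockout TAC hearts and 9.07, 8.97 and 8.85 in knockout sham hearts. It rose by 1.20 ± 0.12 in the knockout (adjusted p = 0.000389 by limma) and differed by 0.47 ± 0.12 in the wild type (adjusted p = 0.142). Atp6ap2, the prorenin receptor and a subunit linked to the proton pump of vesicles, rose by 0.50 ± 0.09 (adjusted p = 0.00384).

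Mme, the peptidase neprilysin, cleaves natriuretic peptides and angiotensin I. It read 7.52, 6.99 and 7.01 in knockout TAC hearts and 8.22, 7.93 and 8.02 in knockout sham hearts. These groups did not overlap, as for 32.3% of all genes. Mme fell by 0.88 ± 0.16 (-0.88, adjusted p = 0.00365 by limma). Nr3c2, the mineralocorticoid receptor through which aldosterone acts, read 8.37, 8.01 and 8.26 in knockout TAC hearts and 9.38, 9.22 and 9.17 in knockout sham hearts. Its difference was -1.05 ± 0.14 in the knockout (adjusted p = 0.000879) and -0.53 ± 0.14 in the wild type (adjusted p = 0.158). Anpep and Nln, peptidases that act on angiotensins, differed by 0.61 ± 0.23 and 0.29 ± 0.10 in the knockout without passing. The other angiotensin receptor genes did not pass either: Agtr1b differed by -0.21 ± 0.10 (adjusted p = 0.21) and Agtr2, the type 2 receptor, by -0.17 ± 0.15 (adjusted p = 0.581). Both were chosen after their values were seen, and both lay under the background 95th percentile (means 5.20 and 4.96). In the wild type 0 of 18 passed, with a median of 0.03 where that of all genes was 0.024. The other listed genes, Ren1 for renin among them, were not analysed here.

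Of the other 6 adrenergic receptor genes only Adra2c was measured, a receptor that restrains noradrenaline release, and it was dim. It read 3.20, 3.32 and 3.51 in knockout TAC hearts and 3.45, 3.58 and 3.48 in knockout sham hearts, and its differences of -0.16 ± 0.13 in the knockout and -0.32 ± 0.13 in the wild type did not pass. Among genes that switch off active receptors 4 of 7 were measured. Arrb1, beta-arrestin 1, rose by 0.46 ± 0.12 in the knockout (adjusted p = 0.023 by limma), and the receptor kinase genes Grk3, Grk4 and Grk6 differed by -0.04 to 0.12 without passing, Grk4 at a mean of 5.56, under the background 95th percentile. Arrb1 was not called with replicate 1 or 2 of knockout TAC, or replicate 1 or 3 of knockout sham, left out.

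**Figure D4:**
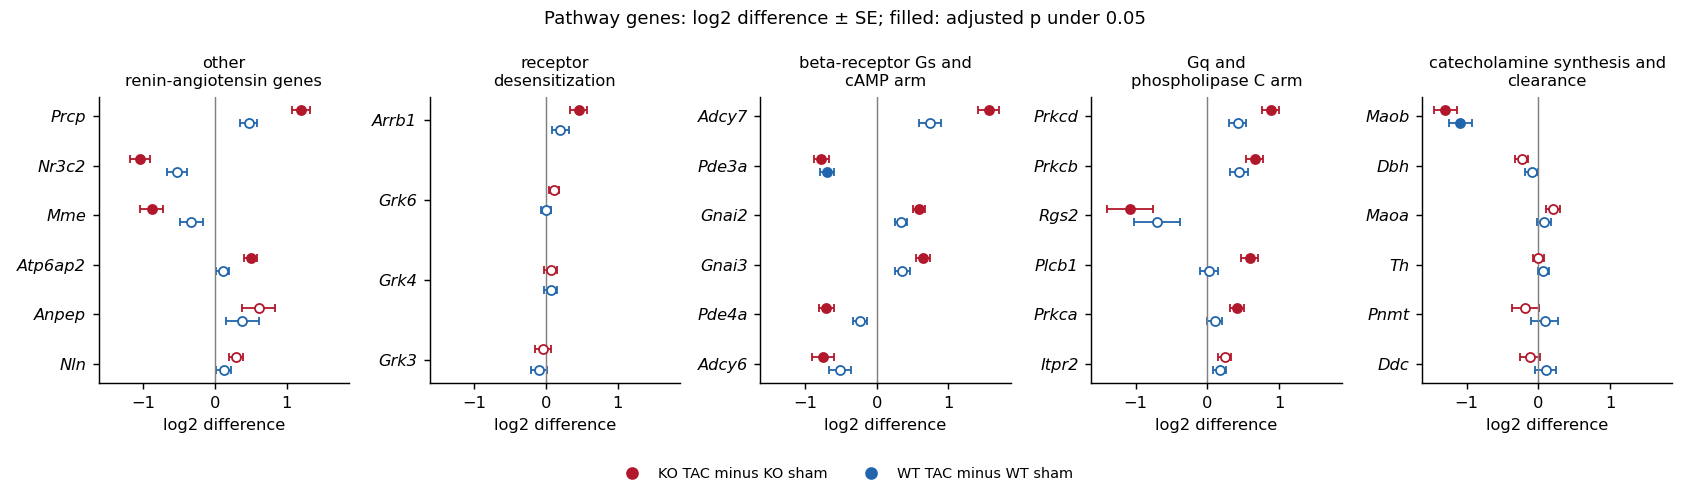
Log2 difference between TAC and sham (horizontal axes) for the genes named from 5 pathway lists (vertical axes), in knockout (red, upper) and wild type (blue, lower) hearts, with standard errors from limma; filled points had an adjusted p under 0.05. In the wild type the filled points are Pde3a at -0.69 and Maob at -1.09, while in the knockout 10 of 28 named genes were called higher and 7 lower. Outside the desensitization list, genes were named for the smallest p for averaged TAC, so these counts partly follow from the choice. Of all genes 7.08% were called higher and 5.68% lower in the knockout.

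The beta-receptor arm runs from Gs through adenylyl cyclase and cyclic AMP to protein kinase A. Its list also holds genes that restrain it, such as inhibitory G protein subunits and phosphodiesterases. Of the list's 23 measured genes 5 rose and 5 fell in the knockout, where 7.08% of all genes rose and 5.68% fell. The list's median was 0.04, and that of all genes -0.032. Adcy7, an adenylyl cyclase prominent in blood cells, read 8.65, 8.87 and 8.51 in knockout TAC hearts and 7.18, 7.13 and 7.04 in knockout sham hearts. It rose by 1.56 ± 0.15 in the knockout (adjusted p = 0.000389 by limma) and differed by 0.74 ± 0.15 in the wild type (adjusted p = 0.0847). Adcy6, one of the main cyclases of heart muscle, fell by 0.75 ± 0.15 (-0.75, adjusted p = 0.00781). Gnai2 and Gnai3, the inhibitory G protein subunits, rose by 0.59 ± 0.09 and 0.65 ± 0.10.

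Pde3a, one of the phosphodiesterases that break down cyclic AMP in heart muscle, was called in both genotypes. It read 11.36, 10.91 and 11.07 in knockout TAC hearts and 11.89, 11.89 and 11.88 in knockout sham hearts. It read 11.18, 11.21 and 11.23 in wild type TAC hearts and 11.81, 11.95 and 11.94 in wild type sham hearts. TAC and sham did not overlap in either genotype, where 32.3% (knockout) and 16.1% (wild type) of all genes did not. The Pde3a differences were -0.77 ± 0.10 in the knockout (adjusted p = 0.000703 by limma) and -0.69 ± 0.10 in the wild type (adjusted p = 0.0356). In the wild type 0 genes of the list were called in 10 of 20 alternatives, most of them leaving out 1 array. Pde4a fell by 0.70 ± 0.10 in the knockout (-0.70, adjusted p = 0.00102) and differed by -0.23 ± 0.10 in the wild type (adjusted p = 0.367).

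The Gq arm is shared by angiotensin and alpha-1 adrenergic receptors, and its list also holds Gna12 and Gna13, genes of other G proteins. Of the list's 15 measured genes 4 rose and 1 fell in the knockout, where 7.08% of all genes rose and 5.68% fell. The list's median was 0.16, and that of all genes -0.032. The number called was 3 with replicate 3 of knockout TAC, or replicate 2 or 3 of knockout sham, left out. The risers were the protein kinase C genes Prkcd (0.88 ± 0.12, adjusted p = 0.000998 by limma), Prkcb (0.66 ± 0.12) and Prkca (0.41 ± 0.10) and the phospholipase gene Plcb1 (0.59 ± 0.12). Rgs2, which shortens Gq signals, fell by 1.08 ± 0.32 (-1.08, adjusted p = 0.048). Itpr2, a calcium release channel, differed by 0.24 ± 0.09 and did not pass. In the wild type 0 of 15 passed, with a median of 0.10. Adcy7 and Prkcb are also expressed in blood cells, and 3 of 4 macrophage markers rose with TAC in the knockout, as given above. The part of those cells was not tested.

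Of 7 measured genes for making and clearing catecholamines 1 was called, in both genotypes. Maob, a mitochondrial monoamine oxidase, read 11.12, 10.63 and 10.58 in knockout TAC hearts and 12.16, 11.97 and 12.10 in knockout sham hearts. It read 10.84, 10.71 and 11.03 in wild type TAC hearts and 12.25, 11.79 and 11.80 in wild type sham hearts. The differences were -1.30 ± 0.16 in the knockout (adjusted p = 0.000614 by limma) and -1.09 ± 0.16 in the wild type (adjusted p = 0.0374). In the wild type 0 genes of this list were called in 10 of 20 alternatives. The synthesis genes Th, Ddc, Dbh and Pnmt differed by -0.23 to 0.00 in the knockout without passing, and Maoa by 0.20 ± 0.10. Th, Dbh and Pnmt had means of 4.20, 4.47 and 5.61, under the background 95th percentile. Between genotypes after TAC, 0 genes of these pathway lists were called by limma; Adcy7 had the smallest p there, at 0.86 ± 0.15 and adjusted p = 0.0592.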

How the data were processed

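Total RNA (250 ng per heart) was biotin-labelled and hybridised to Affymetrix Mouse Clariom D arrays, per the labels' protocols. The deposited values were log2 signals, made by the authors with Affymetrix Expression Console per the submitters' processing notes; how they were normalized and summarized is not given in the sources used here, and the log2 scale was settled from the values (1.27 to 19.93). Of 65527 probe sets 6732 controls were left out; 27268 of the others carried 1 symbol, 1932 several and 29595 none in the annotation used. The brightest probe set per symbol gave 26989 genes, with no filter on dim genes.

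Groups came from the sample titles. A limma fit (3.58.1, R 4.3.3) of all genes took the 12 arrays together, each group having its own mean (prior degrees of freedom 3.29, residual 8), 2-sided, Benjamini-Hochberg adjusted over all genes and called at an adjusted p under 0.05; errors of differences are standard errors. The fit was tested on simulated data. The number of arrays limits the precision. Alternatives were quantile normalization, centring, a filter on dim genes, all probe sets, trended and robust variance, array weights, only the groups compared, the replicate number as a block, and leaving out each array. Deviations of same-numbered arrays correlated at 0.14 to 0.25 between knockout TAC and knockout sham hearts, above 0.1 in each pair, and at -0.07 to 0.31 over all 18 pairs; the labels give no shared litter or day.

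All members were named; from 4 pathway lists up to 6 genes with the smallest p for averaged TAC were named, and all measured genes of the desensitization and other adrenergic receptor lists. The members and lists were chosen with earlier results of these data known.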

Additional observations from a re-analysis of the deposited data

How the results depend on the processing

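The 6 member differences called above (Ace, Agtr1a and Adra1b for TAC in the knockout and averaged over genotypes) kept their direction and their call in all 115 alternative values computed, with adjusted p up to 0.0245 by limma. Without dim genes Adra1b was not tested, which left 2 members called in the knockout. After TAC, 1 member (Ace) differed between genotypes without dim genes (1.18, adjusted p = 0.0293) and with the replicate block (1.18, adjusted p = 0.029), in place of 0. The block changed no member's call for TAC. In wild type hearts 1 member (Ace) was called for TAC with array weights (1.10, adjusted p = 0.0431), in place of 0. Leaving out single arrays gave 0 to 1 members called for TAC in the wild type, between genotypes after TAC and for the interaction, 3 in the knockout and 3 to 4 averaged over genotypes, where Agt was the added one. Agt also passed, averaged over genotypes, with centred arrays (-0.37, adjusted p = 0.0491), without dim genes (-0.34, adjusted p = 0.0465) and with array weights (-0.39, adjusted p = 0.0419). Other alternatives weakened the averaged Agt value, to -0.25 at the smallest, with adjusted p up to 0.191 by limma. Only uncalled values changed sign: Agtr1a between genotypes after sham was 0.03 with quantile normalization, 0.05 with array weights and -0.12 to 0.06 without single arrays, and Agt without single arrays was -0.20 to 0.11 after sham, -0.07 to 0.13 after TAC and -0.10 to 0.21 for the interaction. The cause of these changes was not tested. Over all genes, calls ran from 2098 to 4440 for TAC in the knockout (3444 as reported; 2098 without knockout TAC replicate 2), from 0 to 352 in the wild type (48) and, between genotypes after TAC, from 0 to 774 without wild type TAC replicate 2 (3). The interaction, with 0 as reported, gave 151 without that array. For TAC in the knockout, in alternatives added after seeing the data, called genes ran from 4 to 6 in the renin-angiotensin list, 7 to 11 in the Gs list, 3 to 7 in the Gq list and 0 to 1 for desensitization. In the wild type the Gs list, with Pde3a, and the catecholamine list, with Maob, each had 0 called genes in 10 of 20 alternatives. Dim probe sets, Agt and Adra1b among them, limit how small a change can be seen.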
